A study of Mus musculus with 12 samples.

Results

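Albulin and Insulin-Apo are long-acting insulins fused to different carrier proteins, and their effects on gene expression in the liver were compared directly. The comparison takes 6 of the 12 arrays of the series, 3 for each derivative. Its members are the probe sets whose log2 value exceeded 5 on 2 or more of the 3 arrays of either derivative, which were 25943 of the 28213 probe sets of the array. No measured difference between the derivatives was used to choose them. Albulin is insulin fused to albumin, and Insulin-Apo is a single-chain insulin placed before human apolipoprotein A-I and joined to it by a short linker. Both proteins were produced in E. coli. They were given subcutaneously at 55 nmol/kg to wild type C57BL/6 mice without induced diabetes, and the livers were taken 6 h later. The labels give an age of 6 weeks for the mice of every group, and the methods describe female C57BL/6J mice bought at 7 weeks. The other arrays hold livers of such mice given saline (n = 3) or insulin glargine at 55 nmol/kg (n = 3), the last being an insulin analogue that acts for long without a carrier protein. The doses were matched by moles, and none of the 12 arrays is labelled with albumin or apolipoprotein A-I alone. Separate mice per array are not stated in the sources used here, so the p values describe the spread between arrays, which may be technical.

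Albumin is the main protein of plasma and is kept in circulation by the neonatal Fc receptor. Apolipoprotein A-I is the main protein of high-density lipoprotein (HDL) and delivers cholesterol to hepatocytes through the scavenger receptor Scarb1. In hepatocytes, insulin and glucose raise the transcription of the enzymes that turn citrate into fatty acids, through the transcription factors SREBP-1c and ChREBP. The endoplasmic reticulum (ER), where the liver folds its secreted proteins, answers an excess of unfolded protein by inducing chaperones through ATF6 and XBP1, which is the unfolded protein response.

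The arrays of both derivatives had the profile of liver. The mean log2 level of 9 hepatocyte markers lay between 14.37 and 14.40 on the Albulin arrays and between 14.31 and 14.38 on the Insulin-Apo arrays, and none of the 9 was called different. Array medians over all probe sets ran from 7.70 to 7.77. Albulin replicate 2 had the highest median of the 6 arrays compared (7.77), the smallest SD over probe sets (2.14) and the lowest quality weight (0.67, where 1 is the average). Insulin glargine replicate 3 stood apart from its group, with a mean correlation of 0.990 to the other arrays of the group. No array held the values of another.

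Albulin and Insulin-Apo differed in 166 of 25989 probe sets tested, or 0.639%. A probe set was called when B, the log odds that it differed in limma, was over 0. Among them, 65 (0.25%) were higher and 101 (0.389%) were lower after Albulin. All 166 had arrays of the derivatives that did not overlap. Of all genes, 9.7% were separated with Albulin higher and 9.35% with Albulin lower. The calls were made on the same arrays, so the separation of called probe sets is no added support. The differences were mostly small, with a median size of 0.49 on the log2 scale. Only 12 exceeded 1, of which 10 were higher and 2 lower after Albulin. The adjusted p values of the calls ran from 0.00804 to 0.0954, and 36 were below 0.05. By gene, read from the probe set with the highest mean, 49 of 18901 genes were higher (0.259%) and 80 were lower (0.423%) after Albulin. Over all genes the median log2 difference was 0.02.

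The balance of higher and lower calls depended on scaling and on single arrays. With array medians set equal, 47 of 178 calls were higher after Albulin, and after repeated quantile normalization 88 of 174 were. Without Albulin replicate 2, 103 probe sets were higher and 43 lower. This array was the lowest of the 3 Albulin arrays in 39 of the 49 genes called higher, against 35.7% of all genes. Insulin-Apo replicate 2 was the lowest of its group in 24 of those 49 genes, against 32.9% of all genes. Without Albulin replicate 1 the calls numbered 77, and without Albulin replicate 3 they numbered 106. Equal medians lowered every difference by about 0.02, and leaving out 1 array moved list medians by more than that, so list medians near 0 have no settled sign.

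**Figure D1:**
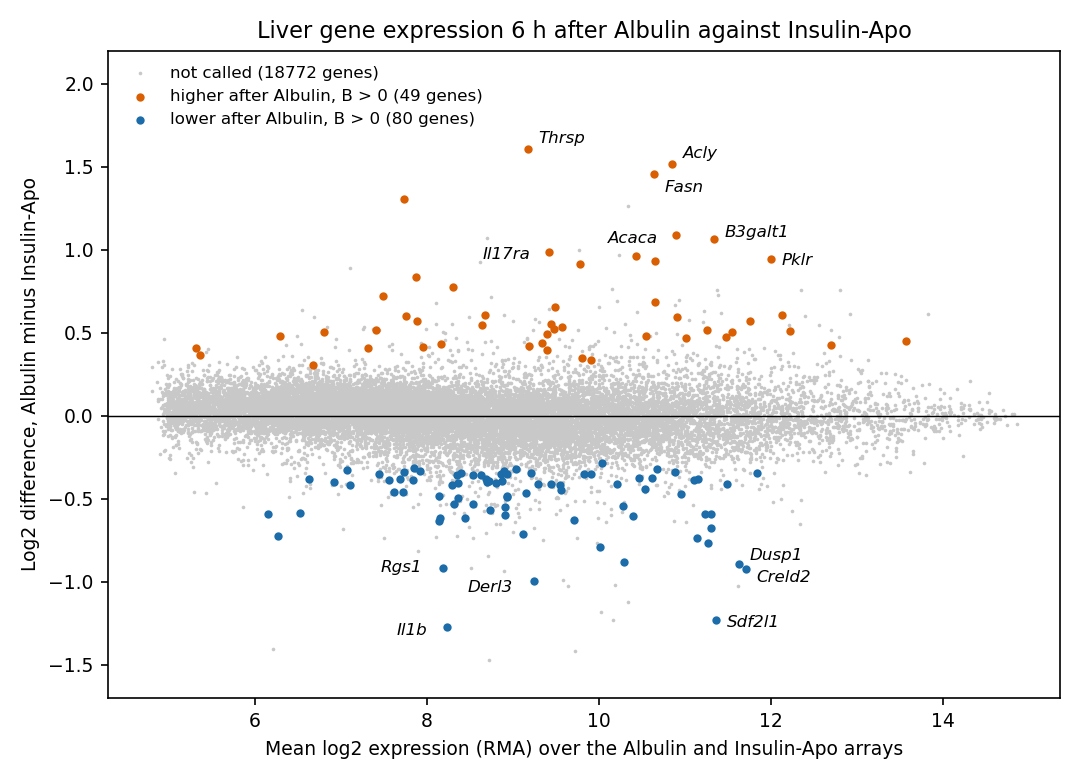
Log2 difference between Albulin and Insulin-Apo (vertical axis) against the mean log2 expression over both groups (horizontal axis) for 18901 genes, with called genes in colour (limma, B over 0). The 49 genes higher after Albulin include the lipogenic genes Thrsp, Acly, Fasn and Acaca at the top, and the 80 lower genes include Il1b, Sdf2l1, Derl3 and Creld2 at the bottom.

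Of 20 measured genes of fatty acid synthesis, 4 were called, all higher after Albulin, and 3 of them had the largest differences among the genes called higher. Expression of Thrsp, a nuclear protein that promotes lipogenesis, was 10.31, 9.47 and 10.14 on the Albulin arrays and 8.45, 8.22 and 8.44 on the Insulin-Apo arrays. The lowest Albulin array was 1 unit above the highest Insulin-Apo array, and the log2 difference was 1.60 (standard error 0.18, adjusted p = 0.00953), or 3.04-fold. Acly encodes ATP citrate lyase, the source of acetyl-CoA in the cytosol. It was at 11.82, 11.26 and 11.75 after Albulin and at 10.42, 9.96 and 9.89 after Insulin-Apo, a log2 difference of 1.52 (standard error 0.16, adjusted p = 0.00804). For Fasn, the fatty acid synthase that builds palmitate, the Albulin arrays were at 11.58, 10.89 and 11.64 and the Insulin-Apo arrays at 9.92, 10.12 and 9.69. The difference was 1.46 (standard error 0.19, adjusted p = 0.0171). Acaca, the acetyl-CoA carboxylase that makes malonyl-CoA, was at 11.56, 11.26 and 11.52 after Albulin and at 10.42, 10.38 and 10.27 after Insulin-Apo. Its difference was 1.09 (standard error 0.12, adjusted p = 0.00804). The arrays of these 4 genes did not overlap, and in each of them Albulin replicate 2 was the lowest Albulin array. All 4 were called under each of 22 alternative settings.

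The remaining 16 of 20 measured genes of this list were not called, against 0.259% of all genes called higher. At an unadjusted p under 0.05, 8 of the 20 were higher and 1 was lower, where 6.43% of all genes were higher and 7.44% lower. The median log2 difference of the list was 0.12. The gene lists were chosen with earlier results of these data known, so such shares are no independent support. Elovl6, which lengthens palmitate, had a difference of 0.62 (95% confidence interval 0.31 to 0.93, adjusted p = 0.109) with arrays that did not overlap. It was called in 4 of the 22 alternatives, 1 of them without Albulin replicate 2. The stearoyl-CoA desaturase Scd1 was at 13.95, 14.15 and 14.30 after Albulin and at 13.99, 13.17 and 13.40 after Insulin-Apo. These arrays overlapped through Insulin-Apo replicate 1, and the difference of 0.61 had an interval of 0.22 to 1.01 (adjusted p = 0.186). Without that array Scd1 was called at 0.85 (adjusted p = 0.0428). Acss2, which makes acetyl-CoA from acetate, had a difference of 0.35 (interval 0.04 to 0.67). Fads2, a desaturase of polyunsaturated fatty acids, went the other way at -0.34 (interval -0.59 to -0.10), and neither was called.

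Some enzymes that supply lipogenesis with NADPH and carbon were called higher after Albulin than after Insulin-Apo. Pgd, the phosphogluconate dehydrogenase of the pentose phosphate pathway, was at 11.22, 10.87 and 11.26 after Albulin and at 10.36, 9.97 and 10.22 after Insulin-Apo. The groups did not overlap, the difference was 0.93 (standard error 0.12, adjusted p = 0.0163), and all 22 alternatives called it. Aldh1l1, a folate enzyme that forms NADPH, was at 13.01, 12.94 and 12.79 after Albulin and at 12.38, 12.43 and 12.64 after Insulin-Apo. Its difference was 0.43 (adjusted p = 0.0928) and was called in 10 of 22 alternatives only. The saline arrays of Aldh1l1 were at 12.92, 13.06 and 12.87. Against saline it differed by -0.04 after Albulin, which was not called, and by -0.47 after Insulin-Apo, which was called lower. Pgd differed from saline by 0.93 after Albulin, which was called, and by -0.01 after Insulin-Apo, which was not. The malic enzyme Me1 (0.55, interval 0.19 to 0.90), the transketolase Tkt (0.34, interval 0.15 to 0.52) and the isocitrate dehydrogenase Idh1 (0.27, interval 0.13 to 0.40) were not called. Of the 13 NADPH genes measured, 2 were called higher and none lower, where 0.259% and 0.423% of all genes were. In 7 of the 13, all Albulin arrays were above all Insulin-Apo arrays, as in 9.7% of all genes. The median difference was 0.22. Of the NADPH genes that were called, Aldh1l1 was lost without Albulin replicate 1 (0.38), Albulin replicate 2 (0.41), the first 2 Insulin-Apo arrays in turn (0.38 and 0.40) or saline replicate 1 or 3 (0.43 each).

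Of 23 genes of glycolysis, fructolysis and glycogen, 3 were called higher after Albulin and none lower, where 0.259% of all genes were called higher. The list median was 0.10, but 0.04 without Albulin replicate 3 and 0.05 with Insulin-Apo replicate 2 left out. Pklr, the liver pyruvate kinase, was at 12.53, 12.24 and 12.66 after Albulin and at 11.88, 11.41 and 11.30 after Insulin-Apo, a difference of 0.95 (standard error 0.16, adjusted p = 0.0653). Khk, the ketohexokinase that starts fructose metabolism, was at 12.11, 11.94 and 12.08 after Albulin and at 11.60, 11.26 and 11.57 after Insulin-Apo, a difference of 0.57 (adjusted p = 0.0704). Pygl, the liver glycogen phosphorylase, was at 11.71, 11.58 and 11.87 against 11.38, 11.11 and 11.25, a difference of 0.48 (adjusted p = 0.0794). The arrays of all 3 genes were separated, but none of the 3 was called without Albulin replicate 1, where the differences were 0.92 for Pklr, 0.53 for Khk and 0.48 for Pygl, or without Albulin replicate 3, where they were 0.85, 0.55 and 0.40. Pygl was also lost without Insulin-Apo replicate 2 (0.41), Insulin-Apo replicate 3 (0.48) or saline replicate 2 (0.48). Ppp1r3c, a glycogen-targeting subunit of protein phosphatase 1 and the lowest of the list at -0.99 (interval -1.62 to -0.36), was not called and was named after its values were seen. The catalytic subunit of AMP-activated protein kinase Prkaa2 was also called, with a difference of 0.52 (adjusted p = 0.0741), in 13 of 22 alternatives. Its call was lost without Albulin replicate 1 (0.52) or 3 (0.42), or with Insulin-Apo replicate 1 (0.50) or 2 (0.49) left out. It was the single called gene of 10 in its list.

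**Figure D2:**
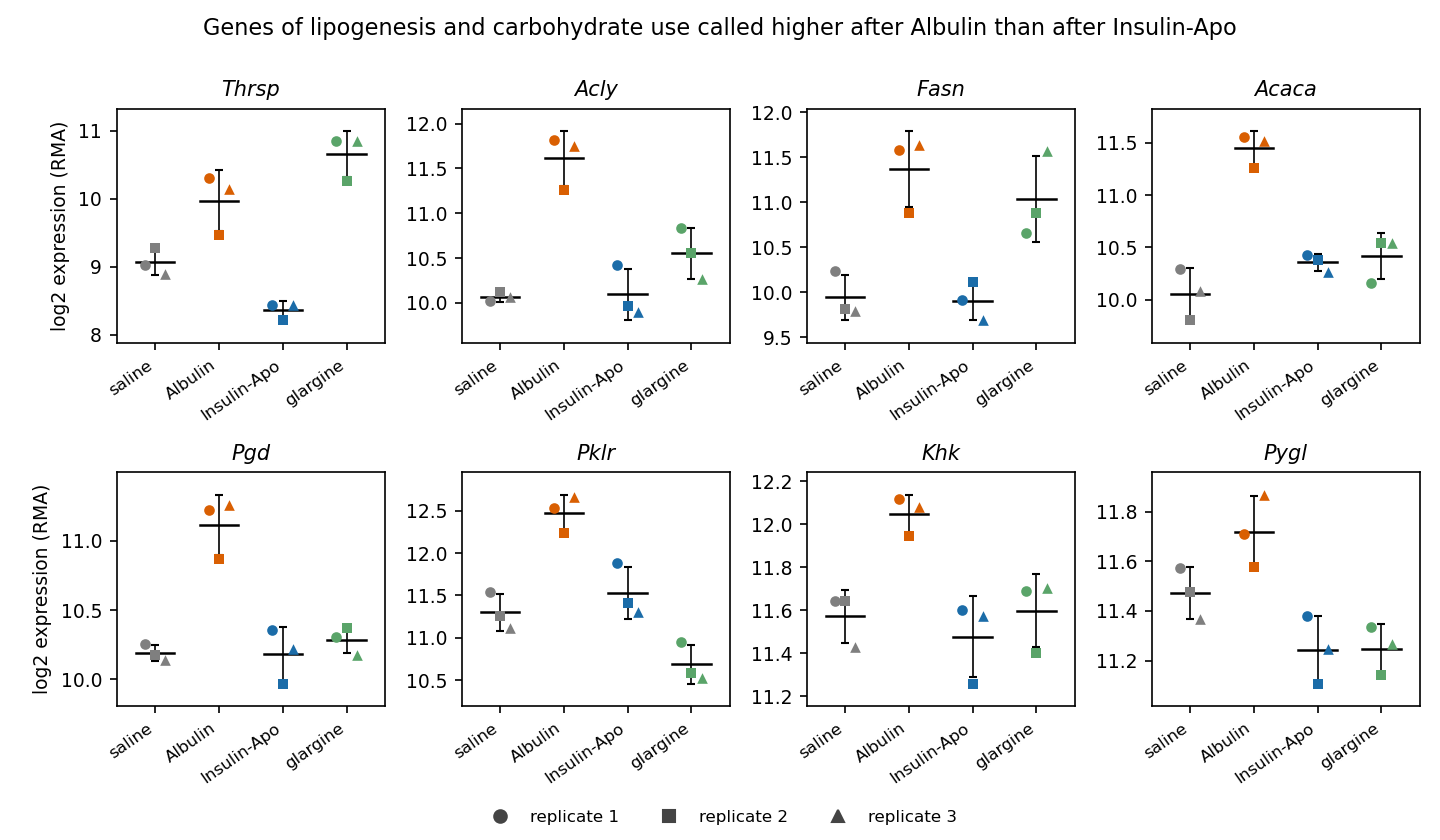
Log2 expression (RMA) of 8 genes called higher after Albulin than after Insulin-Apo, by treatment group (horizontal axis). Each point is an array and its shape the replicate number, long bars are means and whiskers the SD (n = 3). Albulin arrays lie above all Insulin-Apo arrays in each panel, and the square of Albulin replicate 2 is the lowest Albulin point. The panels have separate vertical axes that do not start at 0.

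Genes of lipogenic transcription factors were not called, and the activity of these factors was not measured. Srebf1, which encodes SREBP-1c, was at 9.24, 9.24 and 9.15 after Albulin and at 8.94, 9.22 and 8.87 after Insulin-Apo, a difference of 0.20 (interval -0.03 to 0.43). Mlxipl, which encodes ChREBP, was at 11.23, 10.91 and 11.38 against 10.77, 10.80 and 10.96, with a difference of 0.33 (interval 0.06 to 0.60, adjusted p = 0.281). The arrays of both genes overlapped. Nr1h3, the oxysterol receptor LXR alpha, had a difference of -0.23 (interval -0.41 to -0.06). None of the 13 factors measured was called. At an unadjusted p under 0.05, 2 were higher and 1 lower, where 6.43% of all genes were higher and 7.44% lower.

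In saline livers Acly, Fasn and Acaca were nearer to their levels after Insulin-Apo than after Albulin, and Thrsp lay between the derivatives. Saline values of Acly were 10.02, 10.12 and 10.06, those of Fasn were 10.23, 9.81 and 9.79 and those of Acaca were 10.29, 9.81 and 10.08. Against saline, Albulin gave log2 differences of 1.55 for Acly, 1.42 for Fasn and 1.39 for Acaca, which were called, and Insulin-Apo gave 0.03, -0.04 and 0.30, which were not. Thrsp was at 9.03, 9.28 and 8.90 after saline, above every Insulin-Apo array and below every Albulin array. It differed from saline by 0.90 after Albulin, which was called, and by -0.70 after Insulin-Apo, which was not. These comparisons use the same arrays as the direct one. In all, 2.41% of the probe sets were called after Albulin against saline and 2.14% after Insulin-Apo. On the insulin glargine arrays Thrsp was at 10.85, 10.26 and 10.85, Fasn at 10.66, 10.88 and 11.57, Acly at 10.83, 10.56 and 10.27 and Pklr at 10.94, 10.59 and 10.53. The glargine arrays of Thrsp thus lay in or above the range of Albulin, and those of Pklr lay below every array of both derivatives.

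With all 9 arrays, no gene of the steps after fatty acid synthesis was called. None of 26 genes of triglyceride synthesis and lipid droplets was called, and 18 of them had a difference below 0, where 8233 of all 18901 genes had. The list median was -0.09 (-0.09 to -0.04 with 1 array left out). The lipase inhibitor G0s2 was at 8.80, 10.31 and 10.23 after Albulin and at 11.10, 11.39 and 10.20 after Insulin-Apo, so its arrays overlapped and its difference of -1.12 had a wide interval of -1.96 to -0.28. The droplet protein Cidec, named after its values were seen, had a difference of -0.77 (interval -1.47 to -0.07), and without Insulin-Apo replicate 3 it was called at -1.20. Of 18 genes of cholesterol synthesis and uptake none was called, at unadjusted p under 0.05 none was higher or lower, and the median was 0.05. It was -0.07 without Albulin replicate 1 and 0.15 without Albulin replicate 2. Hmgcs1, an early enzyme of that pathway, had a difference of 0.20 (interval -0.04 to 0.43). In fatty acid oxidation and ketogenesis none of 27 genes was called, with a median of -0.06 (-0.11 to -0.01 with 1 array left out). At an unadjusted p under 0.05, 4 of the 27 were lower, where 7.44% of all genes were. The hormone Fgf21, which is induced by fasting, was at 7.56, 7.80 and 7.85 after Albulin and at 8.40, 9.01 and 7.99 after Insulin-Apo. Its difference of -0.73 (interval -1.21 to -0.25, adjusted p = 0.192) was not called, although its arrays did not overlap, and without Insulin-Apo replicate 3 it was called at -0.97.

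The mouse's own genes of the carrier proteins were not called, and their intervals were narrow. Alb, the albumin gene, was at 14.79, 14.83 and 14.83 after Albulin and at 14.82, 14.80 and 14.79 after Insulin-Apo, with a difference of 0.01 (interval -0.11 to 0.13). Apoa1 was at 14.73, 14.75 and 14.70 against 14.81, 14.75 and 14.78, with a difference of -0.06 (interval -0.18 to 0.07). Probe sets this bright lie near the top of the scale of the array, where differences can be compressed. Scarb1, the HDL receptor, had a difference of 0.07 (interval -0.14 to 0.29). None of 16 genes of albumin and carrier protein receptors was called and none had arrays that did not overlap. The endocytic receptor Lrp1 came closest (0.20, interval 0.01 to 0.39, adjusted p = 0.353). The neonatal Fc receptor gene has no tested probe set with a single symbol and is not analysed here.

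Of 23 genes of HDL, apolipoproteins and sterol efflux, none was called, with a median of -0.03. Abca1, which exports cholesterol to apolipoprotein A-I, was at 12.05, 12.04 and 11.74 after Albulin and at 11.72, 11.54 and 11.36 after Insulin-Apo. All Albulin arrays were above all Insulin-Apo arrays, although the closest of them nearly met, and the difference of 0.40 (interval 0.15 to 0.65, adjusted p = 0.174) was not called. Angptl8, an inhibitor of lipoprotein lipase that insulin induces, was at 8.76, 9.35 and 9.27 after Albulin and at 9.97, 9.78 and 10.70 after Insulin-Apo. Its difference was -1.02 (interval -1.51 to -0.54, adjusted p = 0.0988), just short of a call, and 6 of 22 alternatives called it, among them the fit without Insulin-Apo replicate 2 (-1.21). The saline arrays of Angptl8 were at 10.74, 10.67 and 11.01. Both derivatives had a mean below saline, by a difference of -1.68 after Albulin, which was called, and -0.66 after Insulin-Apo, which was not.

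Genes of protein folding in the ER that were called went the opposite way, lower after Albulin. The list of ER chaperones and folding enzymes had 24 measured genes. All 24 had a difference below 0, where 8233 of all 18901 genes had. In 17, every Albulin array was below every Insulin-Apo array, as in 9.35% of all genes. At an unadjusted p under 0.05, 16 were lower, where 7.44% of all genes were. The median difference was -0.27. Because the list was chosen with earlier results of these data known, these shares describe it and are no independent support. Called were 3 of the 24, against 0.423% of all genes called lower. Sdf2l1, a partner of the chaperone BiP, was at 10.75, 10.80 and 10.71 after Albulin and at 11.82, 12.21 and 11.93 after Insulin-Apo. The SD was 0.05 among the Albulin arrays and 0.20 among the Insulin-Apo arrays. The difference was -1.23 (standard error 0.12, adjusted p = 0.00804), or 2.35-fold. Creld2, an ER protein that binds misfolded proteins, was at 11.21, 11.27 and 11.26 against 12.05, 12.42 and 12.05, a difference of -0.92 (standard error 0.12, adjusted p = 0.0171). Manf, a secreted ER stress protein, was at 10.75, 10.76 and 10.68 against 11.22, 11.32 and 11.05, a difference of -0.47 (standard error 0.09, adjusted p = 0.0727). Sdf2l1 was called in all 22 alternatives, Creld2 in 21 and Manf in 13. Manf was lost without any 1 of the Albulin arrays (-0.48, -0.48 and -0.45) and on leaving out Insulin-Apo replicate 1 (-0.46) or 2 (-0.41).

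The other members were not called. Hspa5, which encodes BiP, was at 13.44, 13.46 and 13.44 after Albulin and at 13.77, 13.88 and 13.72 after Insulin-Apo, with a difference of -0.34 (interval -0.52 to -0.16, adjusted p = 0.136). Pdia6, a disulfide isomerase, had -0.44 (interval -0.69 to -0.20). Hyou1, an exchange factor of BiP, had -0.42 (interval -0.61 to -0.22), Dnajb11, a cochaperone, -0.37 (interval -0.54 to -0.20) and Hsp90b1, the ER member of the HSP90 family, -0.28 (interval -0.47 to -0.09). Pdia6, Hyou1, Dnajb11 and Hsp90b1 were named after their values were seen. All 5 genes had arrays that did not overlap. The count of called members was 6 without saline replicate 1 and 5 without saline replicate 3, since the saline arrays share the estimate of spread.

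**Figure D3:**
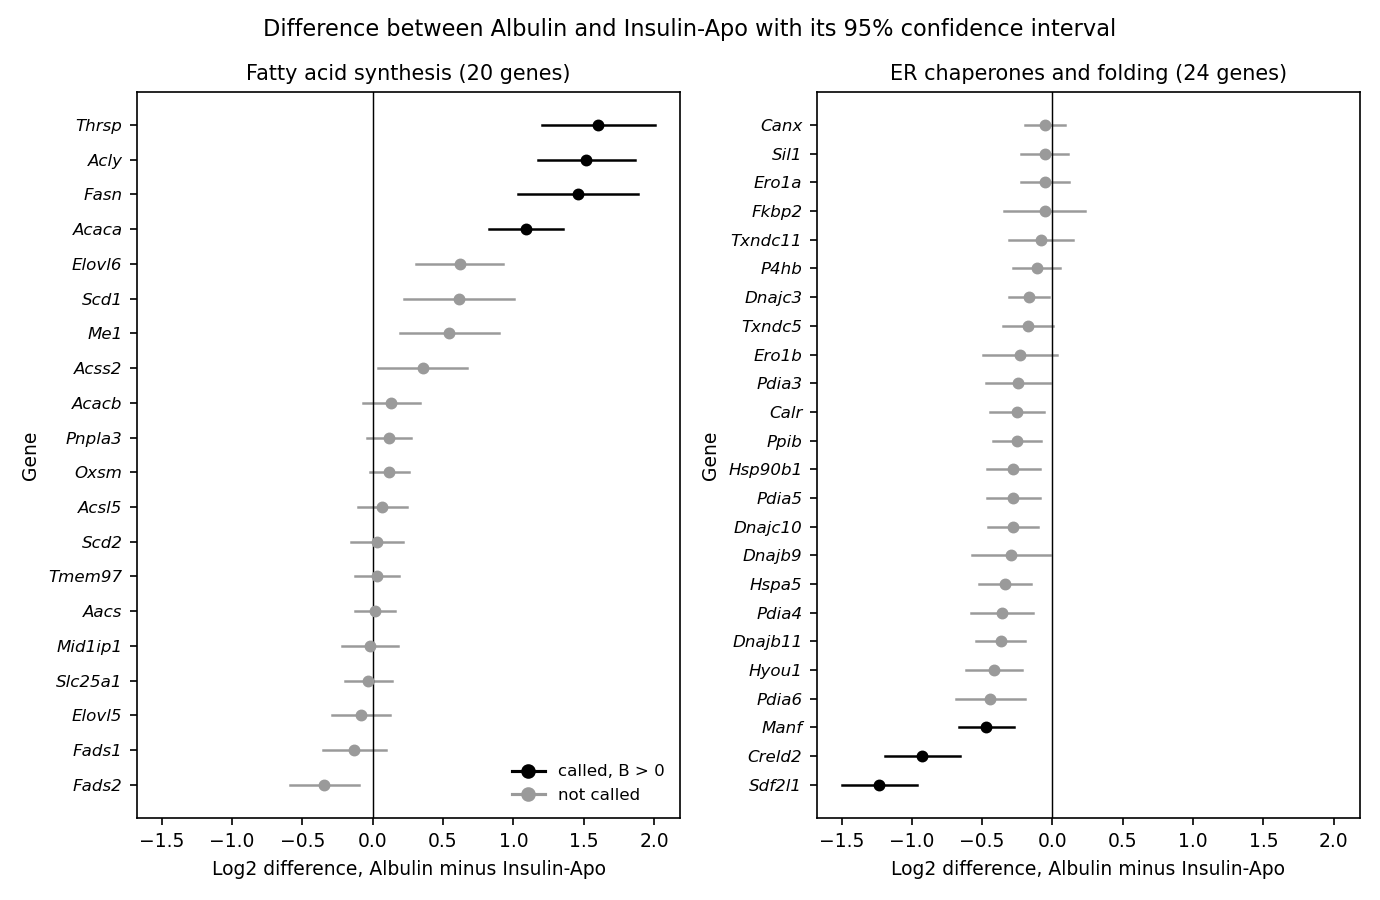
Log2 difference between Albulin and Insulin-Apo (horizontal axis) with its 95% confidence interval for the 20 measured genes of fatty acid synthesis (left) and the 24 of ER chaperones and folding (right), ordered by difference. Black marks genes called by limma (B over 0), which are 4 on the left and 3 on the right. Every gene on the right lies below 0, while the left panel holds a few large positive differences and many near 0.

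The list of ER-associated degradation and translocation, the machinery that returns misfolded proteins to the cytosol, had a median of -0.16 over 25 measured genes. The median was -0.09 without Insulin-Apo replicate 2. Of the 25 genes, 22 had a difference below 0, where 8233 of all 18901 genes had. At an unadjusted p under 0.05, 9 were lower, where 7.44% of all genes were. Derl3 and Selenos were called lower, 2 genes against 0.423% of all genes. Derl3, a channel component of this pathway, was at 8.53, 8.58 and 9.15 after Albulin and at 10.04, 9.34 and 9.87 after Insulin-Apo, a difference of -1.0 (interval -1.43 to -0.57, adjusted p = 0.0754). The arrays did not overlap, but Albulin replicate 3 and Insulin-Apo replicate 2 came close to each other. Selenos, a selenoprotein of the same complex, had -0.32 (adjusted p = 0.0938). Both calls were weak, with Derl3 called in 13 and Selenos in 6 of 22 alternatives. Derl3 was lost without Albulin replicate 1 (-0.89) or 2 (-0.91), Insulin-Apo replicate 1 (-0.85) or 3 (-0.94), or saline replicate 1 (-1.0). Selenos was lost without any 1 of the Albulin arrays (-0.36, -0.31 and -0.29), any 1 of the Insulin-Apo arrays (-0.33, -0.32 and -0.32), or saline replicate 2 or 3 (-0.32 each). Neither was called without Albulin replicate 1 or 2 or Insulin-Apo replicate 1 or 3. None of 26 sensors and ATF4 targets of the unfolded protein response was called, with a median of -0.01. The sensor kinase Eif2ak3 had -0.40 (interval -0.68 to -0.13) and Ddit3, which encodes CHOP, -0.32 (interval -0.53 to -0.12). In the other direction, Xbp1 itself had 0.26 (interval 0.05 to 0.47), and Chac1, a glutathione-degrading target of ATF4, was at 11.14, 10.20 and 10.25 after Albulin against 9.79, 9.77 and 9.75 after Insulin-Apo. The difference of 0.76 was not called. Without Albulin replicate 1 it was smaller, at 0.46 (adjusted p = 0.171), but was called, the only 1 of 22 alternatives to call it.

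Saline levels of the ER genes lay below those of Insulin-Apo. Sdf2l1 was at 10.40, 10.86 and 10.58 after saline, Creld2 at 10.59, 10.80 and 11.02 and Manf at 10.03, 10.16 and 10.32. Against saline, the log2 differences were 1.37 for Sdf2l1, 1.37 for Creld2 and 1.02 for Manf after Insulin-Apo, all called, and 0.14, 0.45 and 0.55 after Albulin, of which that of Manf was called. Derl3 was at 9.12, 9.39 and 9.04 after saline, which is between the derivatives. On the glargine arrays the ER genes were dispersed, with Creld2 at 11.55, 11.81 and 10.54. The lowest of these was glargine replicate 3, the array that stood apart.

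Promoters of ER chaperone genes carry a known sequence, the ER stress response element (ERSE), which ATF6 and NF-Y bind. It reads CCAAT, then 9 bases of any kind, then CCACG. It was searched on both strands of the RefSeq promoter table (GRCm38.p6, 300 bases per promoter, of which 250 lie before the start). Some genes have several promoters, and a gene was counted if any of them held a match. An exact match was found in 8 of the 21 ER chaperone genes with a promoter in the table (38.1%), in 2 of 20 genes of ER-associated degradation (10%), and in 0.141% of the 14847 tested genes with a promoter (0.119% of all 32851 promoters). Among called genes with a promoter, 2 of 66 lower genes and none of 40 higher genes held a match. The lower genes were Creld2 and Derl3, whose promoters are shown because they join a called difference with the element. The 250 bases before the start of Creld2 lie at chr15:88819396-88819645 on the plus strand, and those of Derl3 at chr10:75893148-75893397 on the plus strand. Both are written 5′ to 3′ on the strand of the gene, with the element in capitals. It is in opposite orientation in both, so the capitals begin with the reverse complement of CCACG.
Creld2: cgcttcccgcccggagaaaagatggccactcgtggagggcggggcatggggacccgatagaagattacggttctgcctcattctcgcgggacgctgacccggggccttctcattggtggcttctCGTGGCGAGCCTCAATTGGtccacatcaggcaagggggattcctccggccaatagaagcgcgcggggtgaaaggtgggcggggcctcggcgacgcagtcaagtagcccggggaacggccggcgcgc
Derl3: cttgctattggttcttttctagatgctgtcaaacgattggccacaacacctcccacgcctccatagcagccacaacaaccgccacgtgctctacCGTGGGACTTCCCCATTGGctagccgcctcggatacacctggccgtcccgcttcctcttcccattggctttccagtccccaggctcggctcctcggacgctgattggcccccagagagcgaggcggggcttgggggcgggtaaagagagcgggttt

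For comparison, the elements of list members that were not called are given from CCAAT to CCACG, with the fixed bases in capitals. They are those of Hspa5 (chr2:34772025-34772043, on the gene's own strand, which is plus), Pdia6 (chr12:17266491-17266509, own strand, plus), Calr (chr8:84847075-84847093, opposite to the gene, which is on the minus strand) and Canx (chr11:50325800-50325818, own strand, minus).
Hspa5: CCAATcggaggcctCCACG
Pdia6: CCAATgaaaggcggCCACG
Calr: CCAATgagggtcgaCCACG
Canx: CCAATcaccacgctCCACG
The log2 differences of these genes were -0.34 for Hspa5, -0.44 for Pdia6, -0.25 for the calcium-binding chaperone Calr (interval -0.44 to -0.06) and -0.05 for the lectin chaperone Canx (interval -0.19 to 0.09). A complete element thus stood both in genes with a clear difference and in Canx, whose interval included 0. Sdf2l1, the gene with the largest difference of the list, has no exact match in its window, and Manf is not in the table. The chaperone genes Dnajc3, Ero1b and Hsp90b1 and the ubiquitin ligase gene Syvn1 of ER-associated degradation held a match too. The CCAAT part is a common motif, present in 41.6% of tested genes and in 17 of the 21 chaperone genes. The shorter core ACGTGG, bound by ATF6 and XBP1, was in 8 of the 21 chaperone genes and in 11.4% of tested genes, and TGACGTGG, which contains it, was in 2 of the 21 and in 0.95%.

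Promoters of the fatty acid synthesis genes were searched for the E-box CACGTG, the form that USF and the ChREBP and SREBP families can bind, and for TCACNCCAC, a core of the sterol element. The E-box was in 2 of 17 genes with a promoter (11.8%) against 9.79% of tested genes, and the sterol core in none of 17 against 1.42%. These shares are near the background in windows that end 250 bases before the start. Among the 40 higher and 66 lower called genes with a promoter, the E-box was in 4 and 7, the cAMP element TGACGTCA in 1 and 3 (2.84% of tested genes), the interferon element, GAAA, 2 bases of any kind and GAAA, in none and 2 (3.79%), and the D-box, TTATGTAA or TTACGTAA, in 2 and none (1.13%).

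Genes of inflammation and leukocytes differed in both directions. Il1b, the cytokine interleukin 1 beta, was at 7.42, 7.94 and 7.43 after Albulin and at 8.39, 9.61 and 8.60 after Insulin-Apo, a difference of -1.27 (standard error 0.26, adjusted p = 0.0822). The groups did not overlap, and Insulin-Apo replicate 2 was the highest array by 1 unit. The call was made in 13 of 22 alternatives and was lost without Albulin replicate 1 (-1.19), Albulin replicate 3 (-1.19) or any 1 of the saline arrays (-1.27). Rgs1, which dampens chemokine receptor signalling in leukocytes, was at 7.63, 7.93 and 7.64 against 8.80, 8.41 and 8.73, a difference of -0.92 (standard error 0.12, adjusted p = 0.0171) called in all 22. Ly96, the MD-2 subunit of the endotoxin receptor, was at 10.72, 10.95 and 10.66 against 11.45, 11.71 and 11.39, a difference of -0.74 (standard error 0.12, adjusted p = 0.0499). It was lost in the fit of all 12 arrays, whose glargine arrays were at 11.05, 11.06 and 9.17. Cd300e, a receptor of myeloid cells named after its values were seen, had -0.57 (adjusted p = 0.0653) and was lost without Albulin replicate 1 (-0.50).

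By list, 1 gene was called higher and 1 lower of 26 in interleukin signalling, none higher and 1 lower of 25 among chemokines and leukocyte signalling, and none higher and 1 lower of 23 in endotoxin sensing, against 0.259% and 0.423% of all genes. The gene called higher, Il17ra, encodes the receptor of interleukin 17 and was at 10.35, 9.78 and 9.61 after Albulin and at 8.89, 8.99 and 8.92 after Insulin-Apo, a difference of 0.98 (standard error 0.15, adjusted p = 0.0484). All 22 alternatives called it, and every Albulin array was above the arrays of the other 3 groups (saline 8.65, 8.83 and 8.58). The neutrophil chemokine Cxcl1, named after its values were seen, was at 11.35, 11.24 and 10.33 after Albulin against 9.28, 10.30 and 9.56 after Insulin-Apo. Its difference of 1.26 had an interval of 0.65 to 1.87 and was called in 6 of 22 alternatives only, among them the fits that left out Albulin replicate 3 (1.58) or Insulin-Apo replicate 2 (1.56). Arid5a, an RNA-binding protein that stabilizes inflammatory transcripts, had 0.55 (standard error 0.08, adjusted p = 0.0309) and was named after its values were seen.

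Of 25 acute phase genes, 15 were called higher than saline after Albulin and 13 after Insulin-Apo. Of all 18901 genes, 296 and 295 were called higher than saline. No acute phase gene was called between the derivatives, and the median difference was 0.03. Saa1, a serum amyloid A gene, was at 12.18, 12.37 and 11.00 after Albulin and at 11.82, 12.42 and 10.65 after Insulin-Apo, against 5.98, 6.49 and 6.43 after saline. The arrays of both derivatives overlapped throughout, and the difference was 0.22 with a wide interval of -0.71 to 1.15. Saa3, an amyloid gene of macrophages and other tissues, named after its values were seen, was at 8.88, 9.06 and 9.12 against 10.03, 12.32 and 8.96, so that Insulin-Apo replicate 2 alone was far above the rest. The interferon-induced chemokine Cxcl9, also named afterwards, had the same array highest, at 11.93. No call was made among 25 interferon response genes, whose median was -0.11 (-0.22 to -0.09 with 1 array left out).

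No marker of any cell type was called with all 9 arrays. The 13 markers of Kupffer cells and other macrophages had a mean log2 level of 10.22 to 10.41 on the Albulin arrays and 10.23 to 10.64 on the Insulin-Apo arrays, and none was under 5 on all arrays. At an unadjusted p under 0.05, 7.44% of all genes were lower and 6.43% higher after Albulin, and 4 of the 13 markers were lower. These were the scavenger receptor Marco (-0.85, interval -1.26 to -0.43, adjusted p = 0.106), the lysozyme Lyz2 (-0.32, interval -0.51 to -0.13), Adgre1, which encodes F4/80 (-0.52, interval -0.86 to -0.17), and Cd68 (-0.27, interval -0.51 to -0.04). Clec4f, specific to Kupffer cells, had 0.16 (interval -0.28 to 0.61) and Csf1r -0.09 (interval -0.30 to 0.12). Without Insulin-Apo replicate 3, Marco (-1.06), Lyz2 (-0.40) and Adgre1 (-0.70) were called. The part of the macrophage markers in the differences of Il1b, Rgs1, Ly96 and Cd300e was not tested. In whole liver, fewer cells of a type and less RNA per cell cannot be told apart. The 11 neutrophil markers had levels of 7.54 to 7.69 after Albulin and 7.33 to 7.51 after Insulin-Apo. Of these, 3 were higher at an unadjusted p under 0.05, where 6.43% of all genes were. Markers of B and plasma cells ran from 6.93 to 7.21 against 6.83 to 6.90 (7 genes, 4 higher and 1 lower at that p). T and NK cell markers ran from 6.98 to 7.11 against 7.10 to 7.18 (12 genes, 4 lower at that p). Their part in the higher levels of Il17ra and Cxcl1 was not tested either.

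**Figure D4:**
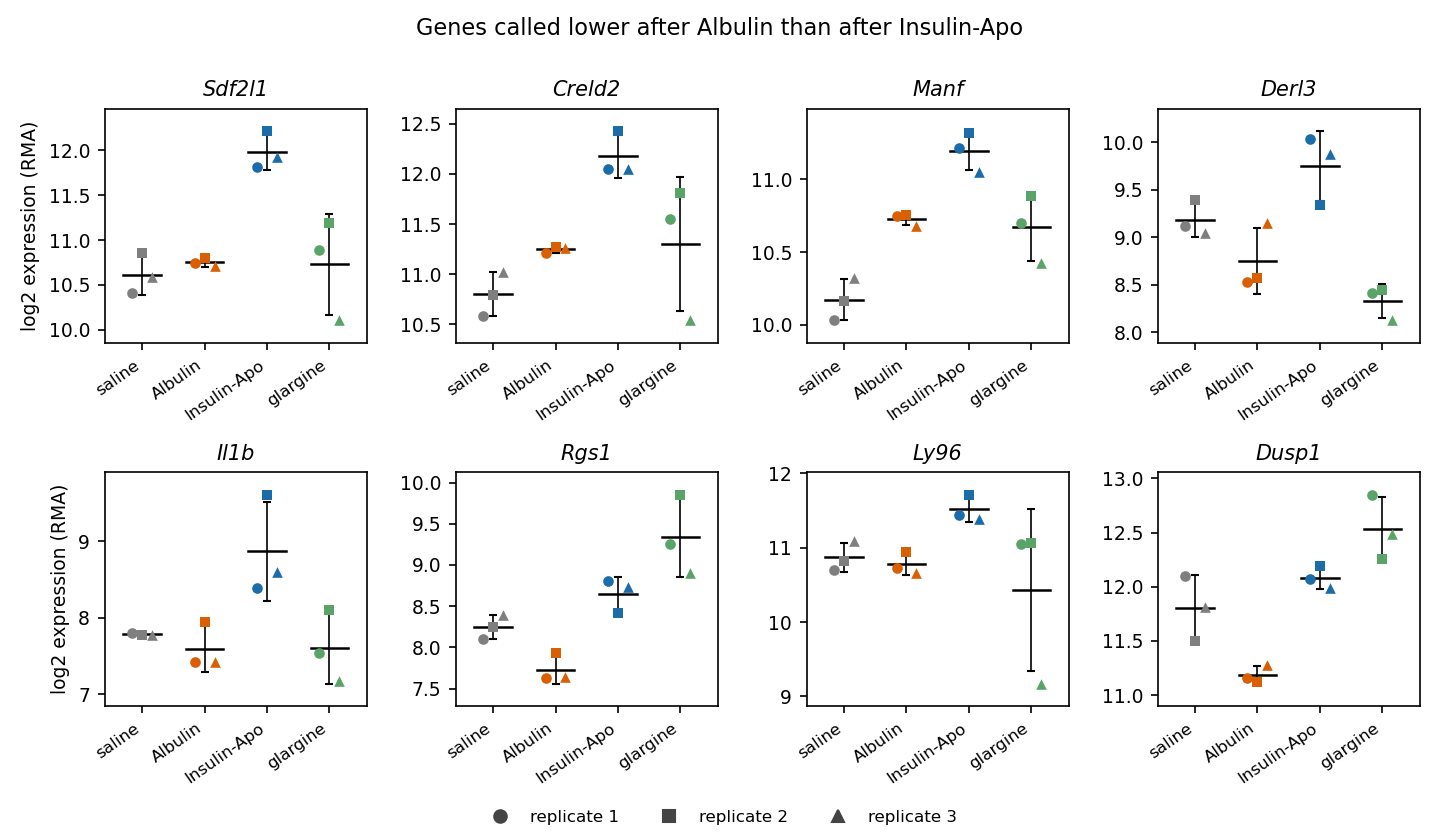
Log2 expression (RMA) of 8 genes called lower after Albulin than after Insulin-Apo, by treatment group (horizontal axis), drawn as points for arrays with shapes for replicate numbers, mean bars and SD whiskers (n = 3). The Albulin arrays lie below all Insulin-Apo arrays in each panel, close to saline for Sdf2l1 and Ly96 and below saline for Rgs1 and Dusp1. The panels have separate vertical axes that do not start at 0.

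Called genes of the immediate early and MAP kinase feedback list went both ways. Dusp1, the phosphatase that switches off MAP kinases and is induced by glucocorticoids, was at 11.16, 11.12 and 11.28 after Albulin and at 12.07, 12.19 and 11.98 after Insulin-Apo, a difference of -0.90 (standard error 0.13, adjusted p = 0.0263) called in all 22 alternatives. Its saline arrays were at 12.10, 11.50 and 11.81, so the Albulin arrays were below saline and Insulin-Apo overlapped it. Crem, a cAMP-responsive factor counted in the gluconeogenesis and immediate early lists, was at 9.0, 8.87 and 8.90 against 9.33, 9.55 and 9.29, a difference of -0.47 (adjusted p = 0.0722). It was called in 15 of 22 and lost without Albulin replicate 2 (-0.44), Albulin replicate 3 (-0.45) or Insulin-Apo replicate 2 (-0.38). Gadd45a, a stress-induced gene of growth arrest, was higher after Albulin at 9.11, 8.43 and 8.56 against 7.88, 8.10 and 7.77, a difference of 0.78 (adjusted p = 0.0781). It was called in 14 of 22, and lost without Insulin-Apo replicate 1 (0.76), Insulin-Apo replicate 3 (0.70), saline replicate 2 (0.78) or saline replicate 3 (0.78). Of the 32 genes of the immediate early list, 1 was called higher and 2 lower, where 0.259% and 0.423% of all genes were, and 12 were lower at an unadjusted p under 0.05, where 7.44% of all genes were. The nuclear receptor Nr4a1, named after its values were seen, had the most negative difference of the 18901 genes at -1.47 (interval -2.46 to -0.48). It was not called. Insulin-Apo replicate 2 was at 10.87 and the other Insulin-Apo arrays at 8.77 and 8.72, and without that array the difference was -0.77 and was called.

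Insulin signalling itself gave no call among 27 genes, with a median of 0.02. Insr, the insulin receptor, was at 11.95, 12.01 and 11.93 after Albulin and at 11.85, 11.81 and 11.82 after Insulin-Apo. Its arrays did not overlap, and the difference was 0.14 (interval -0.01 to 0.29). The receptor substrate Irs1 had -0.58 (interval -0.90 to -0.26, adjusted p = 0.142) and was called without Albulin replicate 3 (-0.74) or without Insulin-Apo replicate 1 (-0.71). Irs2, which insulin represses through FoxO, had 0.01 (interval -0.40 to 0.41). Among 16 genes of gluconeogenesis Crem, called lower, was the single call, where 0.423% of all genes were called lower. G6pc, the catalytic subunit of glucose-6-phosphatase, had -0.29 (interval -0.51 to -0.07) and Pck1, a phosphoenolpyruvate carboxykinase, -0.04 (interval -0.20 to 0.12).

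Cyp7a1, the rate-limiting enzyme of bile acid synthesis, could not be compared with precision. It was at 12.19, 11.21 and 11.09 after Albulin and at 11.18, 10.12 and 12.88 after Insulin-Apo, and all 6 arrays were below the saline values of 13.63, 13.75 and 13.52. The difference between the derivatives was 0.10 with an interval of -1.07 to 1.28. No gene of bile acid synthesis and its FXR control was called among 19, with a median of 0.12 (0.06 to 0.21 with 1 array left out). At an unadjusted p under 0.05, where 6.43% of all genes were higher, 4 of the 19 were. The peroxisomal oxidase Acox2 had the smallest p of them, with a difference of 0.29 (interval 0.12 to 0.46). Of the 21 clock genes, 4 were higher at an unadjusted p under 0.05, against the same 6.43% of all genes. The clock genes gave no call, with a median of 0.11. Nor did the 31 genes of ribosome biogenesis (median 0.02), 21 cytosolic heat shock genes (0.01), 27 cytochrome P450 genes (0.11, but 0.01 without Insulin-Apo replicate 2), 15 genes of growth hormone and IGF signalling (0.04) or 25 genes of amino acid catabolism and the urea cycle (0.04).

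Large differences lay outside the lists as well. B3galt1, a galactosyltransferase of glycan synthesis, was at 12.17, 11.73 and 11.72 after Albulin, at 11.26, 10.67 and 10.49 after Insulin-Apo and at 9.34, 9.49 and 9.66 after saline. The 3 groups were separate from each other, the derivatives differed by 1.07 (standard error 0.18, adjusted p = 0.0681), and the call was lost without Albulin replicate 1 (0.92) or Insulin-Apo replicate 2 (1.0). Tacc2, a centrosomal protein, had the same order at 10.49, 10.17 and 10.06, at 9.39, 9.58 and 9.02 and at 8.51, 8.27 and 8.42, a difference of 0.91 (standard error 0.14, adjusted p = 0.0484) called in all 22 alternatives. Nos1ap, an adaptor of nitric oxide synthase named after its values were seen, was ordered likewise, with a difference of 0.65 (adjusted p = 0.0653). Aox1, an aldehyde oxidase, ran from 10.56 to 11.35 after Albulin and from 9.79 to 10.07 after Insulin-Apo, a difference of 0.96 (standard error 0.17, adjusted p = 0.0695) lost without Insulin-Apo replicate 2 (0.88). Ugt2b35, a glucuronosyltransferase of a family with near-identical copies, had 0.61 (standard error 0.08, adjusted p = 0.0171), whose signals on an array cannot be assigned to 1 copy with certainty. It too was named after its values were seen. The noncoding RNA Mirt2 had 0.83 and was lost without Albulin replicate 1 (0.89) or 3 (0.68), 9130409I23Rik had 1.31 and was lost without Albulin replicate 1 (1.07), and Ccdc171 had 0.72 and was kept in all 22.

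Among lower genes, Mpzl2, an adhesion protein, was at 10.87, 11.01 and 11.02 after Albulin, at 11.72, 11.57 and 11.62 after Insulin-Apo and at 11.99, 12.10 and 12.15 after saline. Here too the 3 groups were separate, with Albulin lowest, and the derivatives differed by -0.67 (standard error 0.07, adjusted p = 0.00804). Hhex, a transcription factor of liver development, was at 9.61, 10.12 and 9.83 against 10.90, 10.55 and 10.76, a difference of -0.88 (standard error 0.18, adjusted p = 0.0871) called in 13 of 22. It was lost without Albulin replicate 1 (-0.76), Albulin replicate 3 (-0.87), Insulin-Apo replicate 1 (-0.80), Insulin-Apo replicate 3 (-0.87) or saline replicate 3 (-0.88). Tbc1d8, of the family of Rab GTPase-activating proteins, was at 9.62, 9.61 and 9.63 against 10.56, 10.05 and 10.64, a difference of -0.79 (standard error 0.13, adjusted p = 0.0499). Rsrp1, an arginine and serine rich protein, had -0.77 (standard error 0.11, adjusted p = 0.0247) and the zinc finger gene Zfp708 -0.63 (standard error 0.09, adjusted p = 0.0238). For Tbc1d8, Rsrp1 and Zfp708 the mean after Insulin-Apo was within 0.04 of saline, and the differences of -0.75, -0.78 and -0.64 after Albulin were called. Entpd7, a nucleotidase, had -0.71 and Kbtbd8, an adaptor of a ubiquitin ligase, -0.72. Entpd7 was lost without Albulin replicate 1 (-0.72), 2 (-0.73) or 3 (-0.68), Insulin-Apo replicate 3 (-0.73) or saline replicate 2 (-0.71), and Kbtbd8 without Albulin replicate 1 (-0.64) or 2 (-0.72) or Insulin-Apo replicate 2 (-0.64) or 3 (-0.65). Slc25a22, a mitochondrial glutamate carrier named after its values were seen, had -0.59 (standard error 0.09, adjusted p = 0.0357).

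The zinc finger genes named Zfp were looked at after Zfp708 and others had been seen among the calls. Of 338 such genes measured, 8 were called lower and none higher, where 0.423% and 0.259% of all genes were, and the median difference was -0.07. Without Albulin replicate 2, 2 were called lower.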

How the data were processed

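Liver RNA for 12 arrays was labelled with 1 round of amplification and hybridized to the 1-colour Affymetrix Mouse Gene 1.0 ST array. The deposited log2 values were background-corrected and normalized by the authors with RMA. The RMA version and the set of arrays normalized at a time were not given in the sources used here. The number of arrays limits the precision.

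Groups and replicate numbers came from the sample labels. Following the methods of the study, probe sets over 5 on 2 arrays of a group were fitted with limma 3.58.1 in R 4.3.3 over the 9 Albulin, Insulin-Apo and saline arrays. A call required B over 0 with a prior proportion of 0.01. Adjusted p values are Benjamini-Hochberg values of this limma fit over the 25989 probe sets tested, and n is 3 arrays per group. Of these probe sets, 46 passed in saline only and are no members. The limma step was tested on simulated data. Probe sets were named through the platform annotation, and a gene was read from the probe set with 1 symbol and the highest mean over the 9 arrays. Tables and plots used Python 3.11.15, pandas 2.3.3 and matplotlib 3.10.9. The alternatives changed the filter, the scaling, the arrays fitted, the threshold, the reading of probe sets or the model (replicate block, intensity trend, array weights), or left out 1 array.

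The members and the gene lists were chosen with earlier results of these data known. Genes to name were drawn from the 14 higher and 14 lower called genes with the largest differences, up to 6 called members of each list or, with none called, the 2 with the smallest p, and a fixed set of metabolic, carrier, ER and inflammatory genes. The following genes were named after their values were seen: Acss2, Fads2, Me1, Tkt, Idh1, Ppp1r3c, Cidec, Pdia6, Hyou1, Dnajb11, Hsp90b1, Eif2ak3, Calr, Canx, Dnajc3, Ero1b, Syvn1, Cd300e, Cxcl1, Arid5a, Saa3, Cxcl9, Adgre1, Cd68, Clec4f, Csf1r, Nr4a1, G6pc, Pck1, Nos1ap, Ugt2b35 and Slc25a22.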

Additional observations from a re-analysis of the deposited data

Results flagged for a closer look

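The insulin glargine arrays were outside the comparison, and on them 2 of the genes called between the derivatives had all 3 arrays above each of the 9 other arrays. The mean log2 level on the glargine arrays was 9.34 for Rgs1 and 12.53 for Dusp1. Rgs1 was at 9.25, 9.85 and 8.90 on the single glargine arrays and reached 8.80 at most on the others. Dusp1 was at 12.85, 12.25 and 12.49 and reached 12.19 at most on the others.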

How the results depend on the processing

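None of the named genes called in the comparison turned its direction in any of 22 alternatives, and 14 of the 35 were called in all of them. The 166 calls (65 higher, 101 lower after Albulin) became 90 with 41 lower when all 12 arrays were fitted, 36 (20 and 16) at an adjusted p under 0.05, and 28 (15 and 13) with a log2 difference over 0.58 in addition. Leaving out 1 array gave 77 to 180 calls, 34 to 103 higher and 43 to 124 lower. The lowest total came without Albulin replicate 1 (77, with 34 higher and 43 lower). Without Albulin replicate 2 there were 103 higher and 43 lower, and without Albulin replicate 3 there were 59 lower. The cause was not tested. The count of ER chaperone genes called lower, 3, was 1 with all 12 arrays, 6 with the 6 arrays compared alone, 5 with probe sets of 1 symbol alone, 5 with the mean of a gene's probe sets, and 2 to 6 without 1 array. The 4 calls of fatty acid synthesis were 4 or 5 throughout. With the replicate number as a replicate block there were 165 calls, 80 higher and 85 lower, of which 116 were among the 166. Over all tested probe sets, the deviations of same-numbered Albulin and Insulin-Apo arrays correlated at 0.05, 0.08 and 0.02. Low values over all probe sets cannot exclude a pairing that shows in some genes. In the 49 genes called higher, replicate 2 was most often the lowest array of both groups, in 39 for Albulin and 24 for Insulin-Apo. Whether the numbers pair the arrays is therefore not known. With 3 arrays a group, the precision differed between genes, and the interval of Cyp7a1 ran from -1.07 to 1.28.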
